A study of Mus musculus with 4 samples.

Results

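Growth hormone is released in pulses in male mice and almost continuously in females, and hepatocytes read this rhythm through the growth hormone receptor, the kinase JAK2 and the transcription factor STAT5B. Pulses of STAT5B activity keep male-biased genes of the liver high, whereas near-continuous hormone keeps female-biased genes high. The signals of 9 genes known to depend on this rhythm were described here in regenerating mouse liver: Cyp4a12a, Mup3, Hsd3b5, Selenbp2, Cyp2d9, Keg1, Nat8, Bcl6 and Cux2. All but Cux2 are known as male-biased, while Cux2 encodes a repressor found in female liver that acts on male-biased genes. The genes were selected by symbol, with their difference between the groups in these same arrays already known, so their own values are given as a description. Of the 18193 genes that have a probe set with a single symbol, 8 were members, and these held 12 of 34945 such probe sets. Selenbp2, which encodes a selenium-binding protein, had no probe set of its own symbol and no value.

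The comparison was between livers of mice given OGFRL1-expressing cells (OGFRL1 livers, 2 arrays) and livers of mice given EGFP-expressing cells (EGFP livers, the controls, 2 arrays). OGFRL1 is a protein related to the opioid growth factor receptor, and EGFP is a fluorescent protein. All mice were of the strain BALB/c nu/nu, which lacks mature T cells, and all had received carbon tetrachloride, a liver toxin, 23 times at 0.25 ml per kg of body weight. All then received 1000000 human bone marrow mesenchymal stem cells by injection into the spleen, underwent partial hepatectomy on day 21 and gave liver on day 8 after it. A broken-off phrase of the protocol also names albumin in saline before the last dose of the toxin, without the mice it was for. Neither age nor sex of the mice is in the labels. They do not say that arrays of a group stand for different animals either, and each p-value reflects array-to-array spread, which may be technical. Probe sets on this platform are for mouse transcripts, and the delivered human gene was not checked.

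Values are MAS5 signals on a linear scale, 1 per probe set and array. Every array had the same trimmed mean signal (100.0, trimmed by 2%). The median signals were 12.3 and 11.6 on the OGFRL1 arrays and 12.5 and 12.2 on the EGFP arrays. The scaling thus fixes the trimmed mean, and neither the median nor the bright end. Bright transcripts were lower in OGFRL1 livers as a class: of the 1112 genes with a mean signal of at least 1000, 775 had a negative log2 difference, with a median of -0.16, against a median of 0.04 over all 11942 genes tested. The 18 bacterial and phage spike-in probe sets, which report on the assay and not on the liver, had a mean log2 difference of -0.35. Of 10 measured hepatocyte markers all but Ass1 were at 3725 or more on every array, and the sum of the 10 was 65947 and 72264 in OGFRL1 livers, against 112329 and 83355 in EGFP livers. In whole tissue, fewer hepatocytes, less transcript per hepatocyte and a difference between arrays in the assay cannot be told apart. With spike-in scaling the log2 difference of the albumin gene Alb was -0.36, in place of -0.71.

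The sex of the mice bears on the level of these genes, so the sex-chromosome genes were read on each array. Xist, the RNA that silences an X chromosome in female cells, was dim on all arrays, with its brightest probe set at 11.2 and 3.25 in OGFRL1 livers and 8.05 and 4.18 in EGFP livers. Tsix, its antisense RNA, was at 1.67 or less on every array. The Y-linked translation factor gene Eif2s3y was at 465 and 442 in OGFRL1 livers and at 277 and 172 in EGFP livers, a log2 difference of 1.04 ± 0.23 (SE, limma adjusted p = 0.112), and of 0.55 as the mean over its probe sets. Kdm5d, a Y-linked histone demethylase, was at 77.5 and 65.5 in OGFRL1 livers and at 66.1 and 65.4 in EGFP livers. Uty, a Y-linked relative of another histone demethylase, was at 130 and 95.1 in OGFRL1 livers and at 82.8 and 93.0 in EGFP livers, while its second measurable probe set overlapped between the groups. The other probe sets of Kdm5d and Eif2s3y were under the filter. Thus all 4 arrays had Y-linked signal together with dim Xist, and no array stood apart in this. Usp9y and Sry, both on the Y chromosome, had mean signals under the filter, and Ddx3y had no probe set of its own symbol.

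The promoters of Mup3, Keg1 and Bcl6 are shown because they hold matches to sequences known from this pathway. The letters TTCNNNGAA are the core that STAT5 proteins are known to bind, and ATCAAT is a core bound by Onecut factors of hepatocytes. Both strands were searched in windows of 250 bases before to 50 bases after each gene's start (RefSeq, GRCm38.p6). Capitals mark the matches, and no window shown holds both motifs. The windows are Mup3 (chr4:62087268-62087567, minus strand), Keg1 (chr19:12695540-12695839, plus strand) and the downstream of 2 windows of Bcl6 (chr16:23981234-23981533, minus strand).
Mup3: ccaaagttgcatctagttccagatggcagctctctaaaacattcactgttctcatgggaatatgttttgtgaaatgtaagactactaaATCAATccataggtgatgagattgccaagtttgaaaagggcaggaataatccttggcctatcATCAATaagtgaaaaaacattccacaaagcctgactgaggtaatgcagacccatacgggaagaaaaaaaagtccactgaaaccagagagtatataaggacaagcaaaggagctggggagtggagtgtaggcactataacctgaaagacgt
Keg1: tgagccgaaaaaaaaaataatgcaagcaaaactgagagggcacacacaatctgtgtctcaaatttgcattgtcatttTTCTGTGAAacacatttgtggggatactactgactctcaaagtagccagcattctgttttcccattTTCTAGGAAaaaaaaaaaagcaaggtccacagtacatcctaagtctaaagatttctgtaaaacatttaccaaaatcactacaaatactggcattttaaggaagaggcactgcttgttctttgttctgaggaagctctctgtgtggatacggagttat
Bcl6: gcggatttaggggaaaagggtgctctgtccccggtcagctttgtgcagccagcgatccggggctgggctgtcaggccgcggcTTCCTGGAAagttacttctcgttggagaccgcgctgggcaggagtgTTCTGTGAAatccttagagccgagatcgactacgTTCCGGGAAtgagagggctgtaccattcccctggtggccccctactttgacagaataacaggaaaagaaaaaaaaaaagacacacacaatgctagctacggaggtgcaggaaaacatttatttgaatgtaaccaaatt
The Keg1 window held 2 matches to TTCNNNGAA, beginning 173 and 107 bases before the start. The Bcl6 window held 3, beginning 168, 122 and 88 bases before it, and the upstream window of Bcl6 held 1. Mup3 had no match to TTCNNNGAA and 2 to ATCAAT, beginning 162 and 100 bases before its start. The windows of Hsd3b5, Selenbp2, Cyp2d9, Nat8 and Cux2 held neither motif, which says only that these letters are not in them, and no window of Cyp4a12a was at hand. Among all 32851 windows of this length, 8.3% held TTCNNNGAA and 7.54% held ATCAAT. Counted by gene, 2 of the 8 members with a window held the first motif and 1 the second, beside 9.55% and 8.63% of all 27025 genes. A match is a description of the letters and not a measured site.

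Among the enzymes, Cyp4a12a had the lowest log2 difference of all genes tested. It encodes a cytochrome P450 of male liver and kidney that hydroxylates the end of fatty acids, arachidonic acid among them. Its signals were 57.6 and 105 in OGFRL1 livers, against 947 and 1651 in EGFP livers. Both OGFRL1 arrays thus lay far below both EGFP arrays, with a mean of 81.2 ± 33.3 in OGFRL1 livers and 1299 ± 498 in EGFP livers (SD, n = 2 each). The OGFRL1 mean was 6.25% of the EGFP mean, and the log2 difference was -3.95 ± 0.35 (SE). This value and those below are OGFRL1 minus EGFP on the scale log2(signal + 3.51), where the added 3.51 damps the difference of dim genes. The probe set carries no mark of shared probes in its name, but a near-identical paralog, Cyp4a12b, had no probe set of its own symbol. Transcripts of either gene may therefore contribute to the signal. The brightest of the other Cyp4a probe sets overlapped: Cyp4a14, a female-biased relative, was at 104 and 66.7 in OGFRL1 livers and at 138 and 68.9 in EGFP livers. The probe set shared by Cyp4a31 and Cyp4a10 was at 1023 and 568 in OGFRL1 livers and at 1276 and 624 in EGFP livers. A dim probe set of Cyp4a31 was higher on the OGFRL1 arrays, at 35.3 and 14.1, against 9.75 and 7.03 on the EGFP arrays.

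Keg1 encodes a protein of the glycine N-acyltransferase family. It was at 177 and 172 in OGFRL1 livers, against 549.9 and 1047 in EGFP livers. The OGFRL1 arrays were nearly equal, while the EGFP arrays differed from each other by more than the lower of them differed from the OGFRL1 arrays. The means were 175 ± 3.06 in OGFRL1 livers and 799 ± 352 in EGFP livers (SD, n = 2 each), 21.9% of the control level, with a log2 difference of -2.10 ± 0.29 (SE).

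Nat8 encodes an acetyltransferase that completes the synthesis of mercapturic acids, the excreted conjugates of many toxins. It was at 344 and 279.6 in OGFRL1 livers, against 750.3 and 831 in EGFP livers. The arrays within each group were close, with means of 312 ± 45.2 in OGFRL1 livers and 791 ± 57.1 in EGFP livers (SD, n = 2 each). The OGFRL1 level was 39.4% of the EGFP level, and the log2 difference was -1.34 ± 0.16 (SE). Related genes of the Nat8 family were described beside it: Nat8f1 had a log2 difference of -1.28 ± 0.18 (limma adjusted p = 0.0503), Nat8f5 of -1.29 ± 0.33 (adjusted p = 0.145) and Nat8f2 of -0.81 ± 0.17 (adjusted p = 0.10). Each of these 3 had both OGFRL1 arrays below both EGFP arrays, and none passed the threshold. Nat8f4 was at 164 and 203 in OGFRL1 livers and at 152 and 266 in EGFP livers, where the groups overlapped (-0.14 ± 0.27, adjusted p = 0.862).

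Cyp2d9 encodes a P450 of male liver known for hydroxylating testosterone. It was at 3316 and 3560.25 in OGFRL1 livers, against 5239.9 and 5489 in EGFP livers. The groups did not overlap and each was tight, with means of 3438 ± 173 in OGFRL1 livers and 5365 ± 176 in EGFP livers (SD, n = 2 each). The log2 difference was -0.64 ± 0.13 (SE), and it was -0.29 when the arrays were set to equal spike-in signals. Its closest relative by name, Cyp2d10, was at 3561 and 3701 in OGFRL1 livers and 5459 and 5168 in EGFP livers, with a log2 difference of -0.55 ± 0.13 (limma adjusted p = 0.129). Cyp2d26 had -0.25 ± 0.13 and Cyp2d22 had -0.28 ± 0.14, neither past the threshold. The coding sequences of this family are alike, and shared hybridization between Cyp2d9 and Cyp2d10 was not tested.

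Hsd3b5 encodes a steroid reductase of male mouse liver that inactivates dihydrotestosterone. Its probe set was at 1.35 and 0.392 in OGFRL1 livers and at 5.26 and 1.58 in EGFP livers. All 4 signals lay under the filter of 11.6, so the gene was not tested and no fold change is given. Another classical male-biased gene, Slco1a1, an organic anion transporter, was likewise dim, at 2.14 and 6.81 in OGFRL1 livers and at 8.09 and 8.25 in EGFP livers (named after its values were seen). A probe set that is dim everywhere shows neither a level nor a difference. Relatives of Hsd3b5 gave measurable signals, in part overlapping. The brightest probe set of Hsd3b3 was at 794 and 743 in OGFRL1 livers and at 1106 and 1067 in EGFP livers (-0.50 ± 0.13, limma adjusted p = 0.146). Its second probe set overlapped, at 85.3 and 64.1 in OGFRL1 livers and at 53.1 and 80.4 in EGFP livers. Hsd3b2 and a probe set shared by Hsd3b6, Hsd3b3 and Hsd3b2 also overlapped, while Hsd3b7 was lower on both OGFRL1 arrays. Selenbp1, the near-identical relative of Selenbp2, was read by a probe set whose name marks it as shared between genes. It was at 2918 and 3419 in OGFRL1 livers and at 4185 and 5211 in EGFP livers (-0.56 ± 0.17, adjusted p = 0.195). How much of this signal came from Selenbp2 was not tested. Another probe set of Selenbp1, without that mark in its name, was at 2438 and 2597 in OGFRL1 livers and at 2898 and 3413 in EGFP livers.

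Mup3 encodes a major urinary protein, a small carrier of pheromones that male mouse liver secretes in bulk. Its bright probe set was at 723 and 1529 in OGFRL1 livers, against 6786 and 8945 in EGFP livers. OGFRL1 array 2 was the higher of its group, as in Cyp4a12a, yet both stayed far below the EGFP arrays. The means were 1126 ± 569.5 in OGFRL1 livers and 7866 ± 1527 in EGFP livers (SD, n = 2 each), 14.3% of the control level, with a log2 difference of -2.88 ± 0.34 (SE). A second probe set of Mup3 stayed under the filter and overlapped between the groups. It was at 0.463 and 2.84 in OGFRL1 livers and at 1.38 and 9.21 in EGFP livers. Averaging both probe sets gave -1.77. Both names end in the mark that Affymetrix gives to probe sets with probes that may bind other transcripts, and the Mup genes are nearly identical, so the signal may include other members of the family. Mup1, Mup2, Mup7 and Mup20 had no probe set of their own symbol. Mup5 was at 6.56 and 27.3 in OGFRL1 livers and at 32.7 and 75.4 in EGFP livers (-1.60 ± 0.60, limma adjusted p = 0.276). Mup10 was at 13.3 and 35.3 in OGFRL1 livers and at 64.9 and 652 in EGFP livers (-3.05 ± 0.98, adjusted p = 0.217). In both the OGFRL1 arrays lay below the EGFP arrays, and the spread within groups was wide.

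Both regulators among the members gave values that depended on single arrays or probe sets. Bcl6, a repressor higher in male liver that holds female-biased genes down, was at 65.4 and 131 in OGFRL1 livers and at 264 and 63.7 in EGFP livers. EGFP array 1 was the highest and EGFP array 2 the lowest, so the groups overlapped fully, with a log2 difference of -0.48 ± 0.63 (SE). Without EGFP array 1 it was 0.52 and without EGFP array 2 it was -1.47, so a single array set both its size and its direction. The second probe set of Bcl6 was at 12.3 and 19.0 in OGFRL1 livers and at 28.5 and 15.7 in EGFP livers, again overlapping.

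Cux2, the repressor known from female liver, had 3 probe sets that did not point the same way. The brightest was at 33.8 and 46.2 in OGFRL1 livers and at 68.6 and 47.4 in EGFP livers, a log2 difference of -0.49 ± 0.27 (SE). The lower EGFP array and the higher OGFRL1 array were almost equal there. The dimmer probe sets, both with a mean under the filter, were at 11.5 and 9.48, and at 9.36 and 13.8, in OGFRL1 livers, against 7.79 and 6.29, and 7.78 and 1.16, in EGFP livers. Both were higher on the OGFRL1 arrays, and averaging the 3 probe sets turned the difference to 0.32. The direction of Cux2 is therefore not settled by these arrays.

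**Figure D1:**
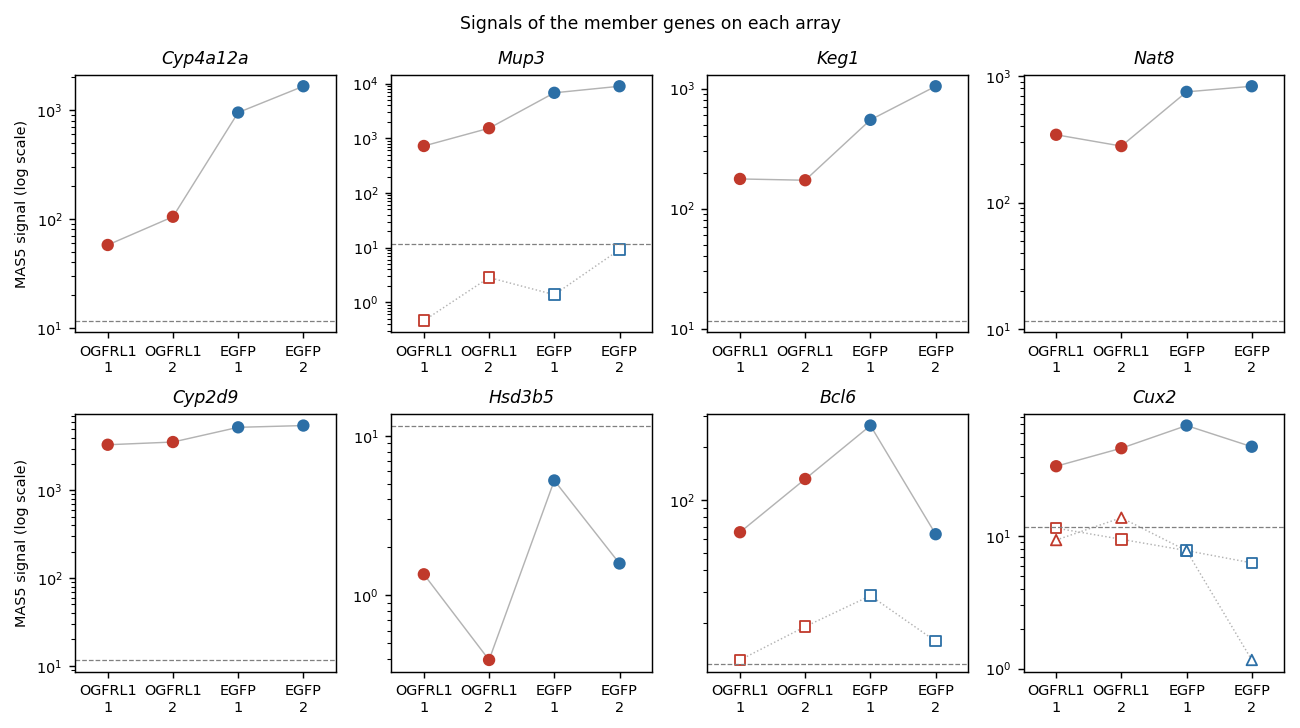
MAS5 signals (log axis) of the 8 members with a probe set, on OGFRL1 arrays 1 and 2 (red) and EGFP arrays 1 and 2 (blue); filled points are the brightest probe set, open points the others, and the dashed line is the filter at 11.6. The brightest probe sets of Cyp4a12a, Mup3, Keg1, Nat8 and Cyp2d9 lie lower on both OGFRL1 arrays, while the dim second probe set of Mup3 overlaps. Hsd3b5 lies under the filter throughout, and Bcl6 overlaps between the groups.

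Over the 7 members tested, the log2 differences ran from -3.95 to -0.48, and all 7 were negative. Both OGFRL1 arrays lay below both EGFP arrays in 6 of the 7, where 20.5% of all genes tested did so. The 4 members Cyp4a12a, Mup3, Keg1 and Nat8 passed an adjusted p of 0.05 in limma's fit of all genes, where 0.511% of genes passed in either direction, 0.151% as lower and 0.36% as higher. These genes were picked with that contrast known, and the 6 tested male-biased members had passed a filter on signal, so nothing is read from these counts. The 6 had a median log2 difference of -1.72, beside 0.04 for all genes tested. Counted from the lowest of the 11942 differences, Cyp4a12a stood at position 1, Mup3 at 4, Keg1 at 8, Nat8 at 47, Cyp2d9 at 410, Cux2 at 780 and Bcl6 at 831. With quantile normalization, or with the mean over probe sets, the only member called was Cyp4a12a, and without OGFRL1 array 1, without a filter, with a stricter filter or without an intensity trend there was no call among them. Without OGFRL1 array 2 the called members were Cyp4a12a and Mup3.

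**Figure D2:**
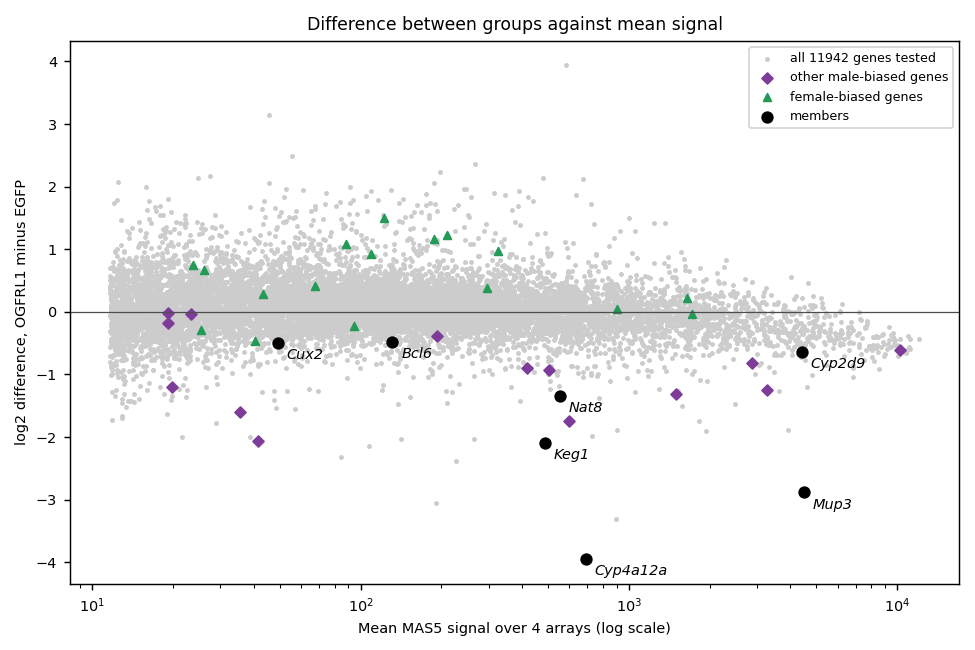
Log2 difference (OGFRL1 minus EGFP) against mean MAS5 signal over the 4 arrays (log axis) for the 11942 genes tested (grey), with the members (black circles, named), other male-biased genes (purple diamonds) and female-biased genes (green triangles). Cyp4a12a at -3.95 and Mup3 at -2.88 lie at the lower edge of all genes, Cyp2d9 at -0.64 lies among bright genes that were mostly below 0, and Bcl6 and Cux2 lie within the grey cloud.

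Genes known to be male-biased in mouse liver, other than the members, were lower in OGFRL1 livers as a list, without a single gene past the threshold. The list was chosen with earlier results of these data known, so its counts are given as a description. Of 25 listed, 18 had a probe set and 14 were tested. The filter on the mean kept Ugt2b38, at 10.2 and 9.02 in OGFRL1 livers, against 14.9 and 45.1 in EGFP livers. It left out Capn8, at 14.4 and 8.16 in OGFRL1 livers, against 8.08 and 4.51 in EGFP livers. Slco1a1 and Moxd1, also left out, were lower on both OGFRL1 arrays, and Cyp2u1 overlapped. Slco1a1 was at 8.25 or less and Moxd1 at 1.26 or less on every array, too dim to show a difference. All 14 had a negative log2 difference, as 5308 of all 11942 genes tested did, with a median of -0.92 and a range of -2.07 to -0.03, and the arrays of the groups were apart in 11, all lower in OGFRL1 livers, where 20.5% of all genes tested were so and 47.4% of those with a mean signal of at least 1000. Limma called 0 of them at an adjusted p of 0.05, and 10 had an unadjusted p under 0.05 with a negative difference, as 6.28% of all genes tested did. Their direction depended in part on the scaling, since 12 of 14 were negative with median scaling and 11 of 14 with spike-in scaling. Elovl3, an elongase of long fatty acids, was at 14.9 and 12.0 in OGFRL1 livers, against 84.2 and 53.9 in EGFP livers (-2.07 ± 0.30, adjusted p = 0.0512). Scara5, a ferritin receptor, was at 281 and 299 in OGFRL1 livers, against 527 and 559 in EGFP livers (-0.90 ± 0.13, adjusted p = 0.0542). The groups were apart in both genes, and each missed the threshold narrowly. The arrays within each group were close for Scara5, while the EGFP arrays of Elovl3 differed. Nudt7, a peroxisomal hydrolase of coenzyme A, was at 1806 and 2040.5 in OGFRL1 livers, against 3844 and 5431 in EGFP livers (-1.25 ± 0.19, adjusted p = 0.0554). Egfr, the receptor of epidermal growth factor, was at 683 and 1029 in OGFRL1 livers, against 1711 and 2572 in EGFP livers (-1.32 ± 0.26, adjusted p = 0.0911), and the mean over its 7 probe sets gave -0.72. With the replicate number as a block, the adjusted p was 0.0407 for Egfr and 0.04996 for Elovl3. Cspg5 (-0.03 ± 0.29) and Ihh (-0.03 ± 0.28), both dim and chosen after their values were seen, differed by less than their standard errors. With spike-in scaling limma called 5 genes of the list, where it called 1511 of all 11942 genes tested. It called 0 of the list with quantile normalization, without a filter, with a stricter filter or without an intensity trend.

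Genes known to be female-biased leaned the other way. This list too was chosen with earlier results of these data known, so its counts are a description. Of 30 listed, 20 had a probe set and 17 were tested, of which 13 had a positive log2 difference, as 6634 of all 11942 genes did, with a median of 0.42 and a range of -0.47 to 1.5. The arrays of the groups were apart in 9, all higher in OGFRL1 livers, where 27% of all genes tested were so. Limma called 0, and 6 had an unadjusted p under 0.05 with a positive difference, as 1076 of all 11942 genes tested did. With spike-in scaling there were 9 calls, where 1511 of all genes tested were called, 1454 of them as higher. The median over all genes was 0.38 in that setting. With quantile normalization, without a filter, with a stricter filter or without an intensity trend there were 0 calls in the list. Cyp39a1, a hydroxylase of oxysterols, was at 413 and 449 in OGFRL1 livers, against 206 and 229.5 in EGFP livers (0.97 ± 0.14, adjusted p = 0.0539). Sult2a2, a sulfotransferase of steroids and bile acids, was at 339.8 and 247 in OGFRL1 livers, against 154 and 96.8 in EGFP livers (1.22 ± 0.26, adjusted p = 0.103). Both were about double on the OGFRL1 arrays or more, with no overlap. Abcd2, a peroxisomal transporter of fatty acids, was at 159 and 128 in OGFRL1 livers, against 58.4 and 92.8 in EGFP livers (0.92 ± 0.25, adjusted p = 0.168). Its log2 difference was 0.29 when its 4 probe sets were averaged and 0.60 without EGFP array 1. Cyp3a44, a P450 of female liver, was at 161 and 85.7 in OGFRL1 livers, against 50.5 and 56.9 in EGFP livers (1.08 ± 0.30, adjusted p = 0.171), with a log2 difference of 0.64 without OGFRL1 array 1. Not all classical female genes did so. Cyp2b9, chosen after its values were seen, was at 28.7 and 36.4 in OGFRL1 livers and at 63.2 and 33.5 in EGFP livers (-0.47 ± 0.33). Cyp2b13, Cyp3a16 and Sult3a1 lay under the filter, with signals of 15.5 or less on every array.

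**Figure D3:**
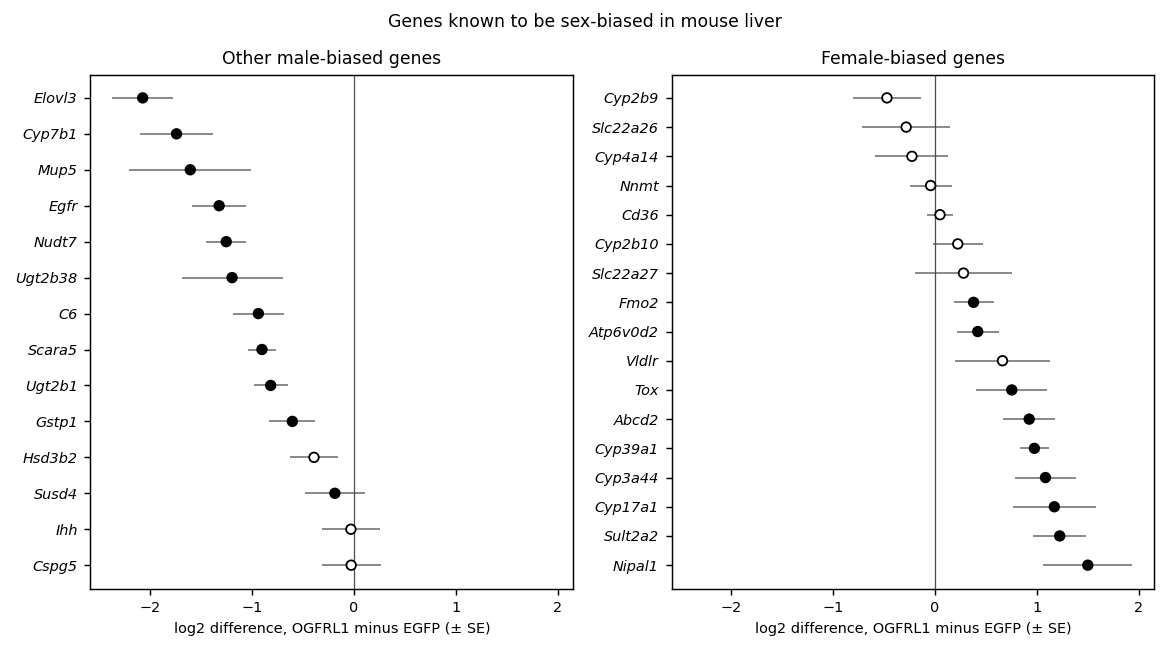
Log2 difference (OGFRL1 minus EGFP, points, with SE bars from the fit of all genes) for the tested genes of the male-biased list (left, 14 genes) and the female-biased list (right, 17 genes); filled points mark genes whose arrays did not overlap between the groups. The male-biased genes lie below 0, from -2.07 for Elovl3 to -0.03, and 13 of the 17 female-biased genes lie above 0, up to 1.5.

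Genes of growth hormone signalling, both its components and genes that the hormone induces, showed no common direction as a list. Of 17 tested, 10 had a negative and 7 a positive log2 difference, with a median of -0.14, and limma called 0 of them. At an unadjusted p under 0.05, 3 were lower and 1 higher, beside 750 lower and 1076 higher of all 11942 genes tested. The groups were apart in 6 as lower and in 3 as higher, where 20.5% and 27% of all genes tested were so. Ghr, the growth hormone receptor, was at 2220 and 2099.6 in OGFRL1 livers, against 3265 and 4623 in EGFP livers (-0.85 ± 0.19, adjusted p = 0.112). Igfals, a growth hormone target that carries insulin-like growth factors in blood, was at 126 and 124 in OGFRL1 livers, against 228 and 259.5 in EGFP livers (-0.94 ± 0.15, adjusted p = 0.0581). Igf1, the growth factor that the hormone induces in liver, was at 4043 and 3665 in OGFRL1 livers, against 5161 and 4730.4 in EGFP livers (-0.36 ± 0.14, adjusted p = 0.295). All 3 were among the 6 with both OGFRL1 arrays below both EGFP arrays. Ghr and Igf1 had a mean signal over 1000, a class in which 47.4% of genes were so. With spike-in scaling the log2 difference was -0.60 for Igfals, -0.50 for Ghr and, for Igf1, -0.0098. Igfbp3, a binding protein for insulin-like growth factors, was at 68.5 and 59.3 in OGFRL1 livers, against 37.9 and 44.3 in EGFP livers (0.60 ± 0.21, adjusted p = 0.250).

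The signal transducer and the feedback genes gave no clear difference. Stat5b, which carries the pulse to the genome, was at 114 and 85.2 in OGFRL1 livers and at 115 and 128 in EGFP livers (-0.29 ± 0.20, adjusted p = 0.553), and it was at 0.049 with spike-in scaling. Socs2, a feedback inhibitor induced by the hormone, was at 81.0 and 80.0 in OGFRL1 livers and at 42.7 and 93.9 in EGFP livers (0.32 ± 0.35, adjusted p = 0.720). Cish, another such inhibitor, was at 132 and 96.9 in OGFRL1 livers and at 79.6 and 196 in EGFP livers (-0.14 ± 0.40, adjusted p = 0.904). In both inhibitors the EGFP arrays enclosed the OGFRL1 arrays, with EGFP array 2 high and EGFP array 1 low.

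**Figure D4:**
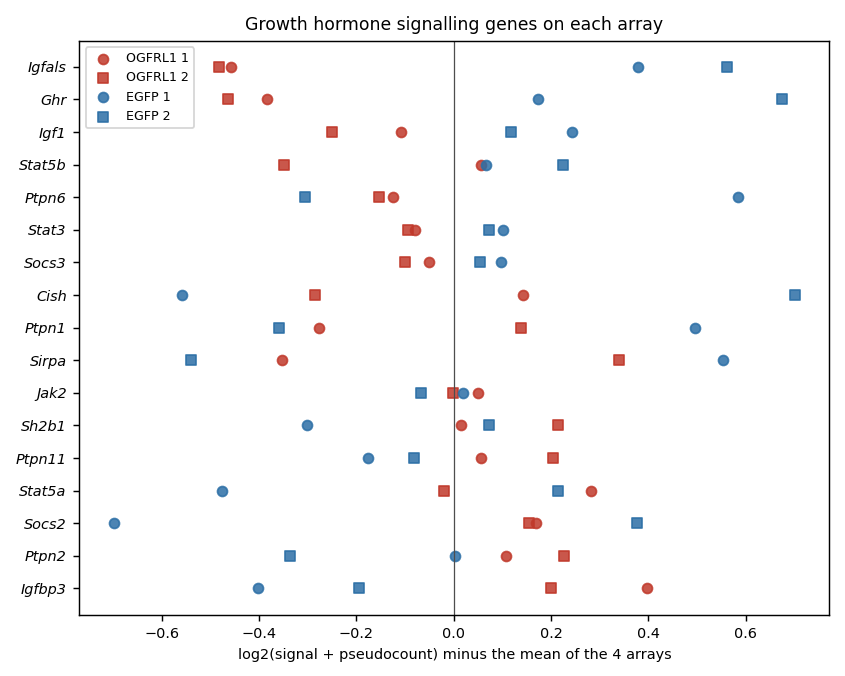
Log2(signal + 3.51) of the 17 tested growth hormone signalling genes on each array, as the deviation from the mean of the 4 arrays (red, OGFRL1; blue, EGFP; circles, array 1; squares, array 2). Igfals, Ghr and Igf1 have both red points left of both blue points, while in Cish and Socs2 the blue points enclose the red ones.

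Transcription and chromatin regulators of hepatocytes were also read, since several act with STAT5B at these genes. Of 15 tested, 8 had a positive and 7 a negative log2 difference, with a median of 0.02, and limma called 0. At an unadjusted p under 0.05, 2 were lower and 1 higher, beside 750 lower and 1076 higher of all 11942 genes tested. Hnf4a, a master regulator of hepatocytes that male-biased expression needs, was at 2191 and 2261 in OGFRL1 livers, against 3602 and 2932 in EGFP livers (-0.55 ± 0.15, adjusted p = 0.171). Its log2 difference was -0.20 both with spike-in scaling and when its 4 probe sets were averaged. Cebpa, another hepatocyte factor, was at 525 and 529 in OGFRL1 livers, against 688 and 1075 in EGFP livers (-0.70 ± 0.22, adjusted p = 0.209), with a log2 difference of -0.38 without EGFP array 2 and -0.35 with spike-in scaling. Foxa3, a factor that opens liver chromatin, had -0.26 ± 0.13 (adjusted p = 0.419) and was at 0.089 with spike-in scaling. Ezh2, a histone methyltransferase that represses sex-biased genes in liver and is also high in dividing cells, was at 206 and 225.5 in OGFRL1 livers, against 105 and 92.5 in EGFP livers (1.10 ± 0.16, adjusted p = 0.0523).

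Markers of other cell populations were read on the same arrays. All 7 tested markers of cycling cells were higher on both OGFRL1 arrays, where 27% of all genes tested were so, with a median log2 difference of 1.70. Of these, 3 rose past the threshold, where 0.36% of all genes did (Birc5, Rrm2 and Mcm6, genes of cell division and DNA replication), and the summed signal of all 7 was 3359 and 4048 in OGFRL1 livers, against 1350 and 913 in EGFP livers. Stellate cell and myofibroblast markers had a median of 0.29. Of 7 tested, 5 were apart and higher in OGFRL1 livers beside the same 27%, and none passed the threshold. At an unadjusted p under 0.05, 3 were higher and 0 lower, beside 1076 higher and 750 lower of all 11942 genes tested. Col1a1 was at 120 and 177 in OGFRL1 livers, against 26.8 and 42.1 in EGFP livers (limma adjusted p = 0.0503). Acta2 had a log2 difference of 1.15 (adjusted p = 0.0684) and Pdgfrb of 0.99 (adjusted p = 0.0963), while Lrat was slightly lower (-0.08). The sums overlapped, at 3006 and 3544 in OGFRL1 livers, against 3235 and 2497 in EGFP livers. Dcn made up most of each sum, at 1781 and 2160 in OGFRL1 livers, against 2450 and 1579 in EGFP livers. Macrophage markers had sums of 3620 and 5895 in OGFRL1 livers, against 6098 and 3155 in EGFP livers, and endothelial markers of 1324 and 1405 in OGFRL1 livers, against 1577 and 1452 in EGFP livers. The 4 tested cholangiocyte markers were dim, with sums of 102 and 109 in OGFRL1 livers, against 107.5 and 108 in EGFP livers, and Cftr was under the filter. Of 10 tested hepatocyte markers 9 were lower on both OGFRL1 arrays. The same held for 20.5% of all genes tested and 47.4% of those with a mean signal of at least 1000. The median over the 10 was -0.43, with 0 calls by limma. By an unadjusted p under 0.05, 6 were lower and 1 higher, beside 750 lower and 1076 higher of all 11942 genes tested. The 1 higher was Ass1, read by a dim probe set at 55.5 and 39.7 in OGFRL1 livers, against 33.4 and 22.1 in EGFP livers. Alb, serum albumin, had -0.71 ± 0.26 (limma adjusted p = 0.271). This difference was -0.16 with quantile normalization, -0.36 with spike-in scaling and -0.32 without EGFP array 1, and -1.11 (adjusted p = 0.0056, where the alternatives ran up to 0.84) without EGFP array 2. The part of these populations in the values of the members was not tested.

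The genes whose pattern over the 4 arrays came closest to the median pattern of the male-biased members were Dct, Car1, Slc22a7, Gm2788 and Csrp3. Likeness was measured as the root mean square difference between log2 values centred on each gene's mean, which was 0.14 for Dct and Car1, 0.20 for Slc22a7 and Gm2788 and 0.22 for Csrp3. Dct, an enzyme of melanin synthesis, was at 56.3 and 50.4 in OGFRL1 livers, against 227 and 232 in EGFP livers. Slc22a7, an organic anion transporter of hepatocytes, was at 341 and 247 in OGFRL1 livers, against 1120 and 1204 in EGFP livers. The gap between the groups in these genes follows from how they were chosen, since the median pattern itself has it. Car1, a carbonic anhydrase, was at 6.67 and 6.29 in OGFRL1 livers, against 37.4 and 35.6 in EGFP livers. With only 4 arrays many genes can share a pattern, and these genes are named as a description. By the same measure Keg1 (0.28) and Nat8 (0.31) lay closest to the median pattern among the male-biased members, and Bcl6 (1.11) and Cyp4a12a (1.09) farthest, Cyp4a12a through its larger gap and Bcl6 mainly through EGFP array 2, where it was low.

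**Figure D5:**
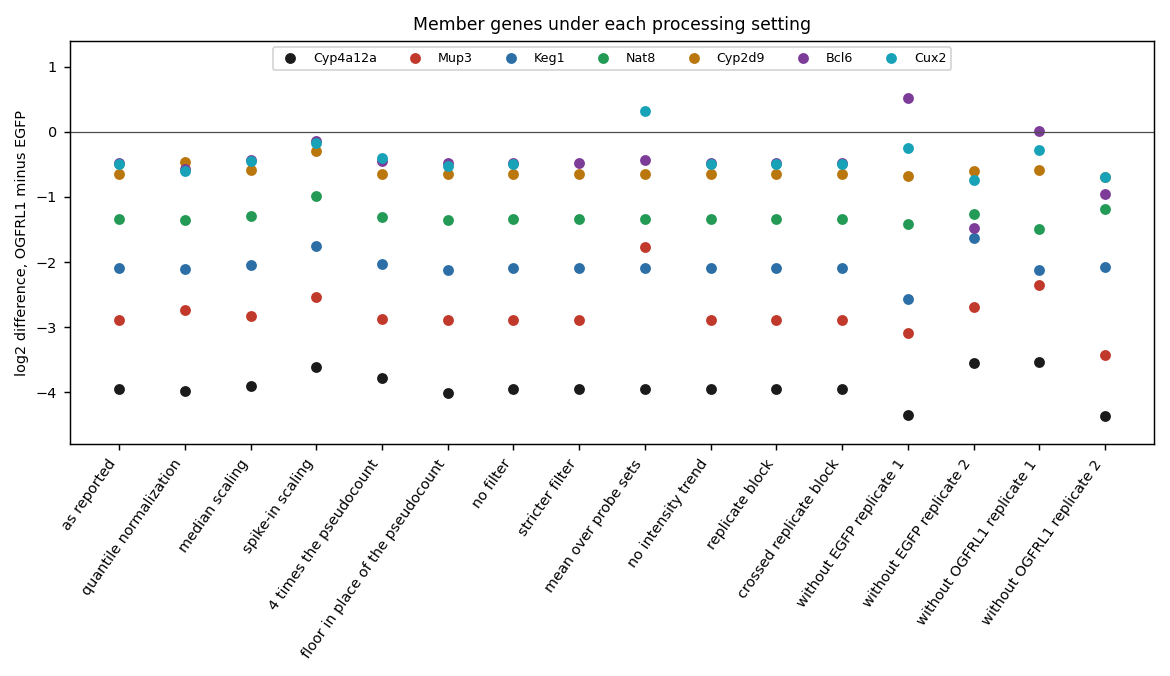
Log2 difference (OGFRL1 minus EGFP) of the 7 tested members as reported and under each alternative that gave a value. Cyp4a12a, Mup3, Keg1, Nat8 and Cyp2d9 lie below 0 in all settings shown, while Bcl6 is at 0.52 without EGFP array 1 and at 0.0067 without OGFRL1 array 1, and Cux2 is at 0.32 when its probe sets are averaged.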

How the data were processed

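MAS5 is the tool named per the submitters' processing notes. Each deposited value is an intensity (a linear MAS5 signal) for a probe set on an array. Scanner settings and detection calls are not given in the sources used here. Genes were named through GEO's platform annotation. Several symbols (932 probe sets) or none (9160) kept a probe set out, as did being 1 of 64 controls. A gene ID for 34741 of the 34945 named ones was found in RefSeq's GRCm38.p6 table, with 0 symbols changed.

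Values were taken as log2(signal + 3.51), the 25th percentile of all signals. The brightest probe set stood for each gene, and genes with a mean of at least 11.6, the median over probe sets, were tested. Differences (OGFRL1 minus EGFP) were fitted over 11942 genes with limma 3.58.1 in R 4.3.3 (lmFit, eBayes with an intensity trend, 2-sided, Benjamini-Hochberg, threshold 0.05), with 2 residual and 4.48 prior degrees of freedom. The fit was tested on simulated data. Promoters and figures used Python 3.11.15, pandas 2.3.3 and matplotlib 3.10.9. With 2 arrays a group, precision is limited by their number.

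The members and lists were chosen with earlier results of these data known. Named were all members, Ghr, Stat5b, Igf1, Socs2, Cish, Alb, the sex-chromosome genes, relatives of a member, 5 genes of like pattern, and up to 4 genes per list, called genes first and then by absolute moderated t. Alternatives covered scaling, pseudocount, filter, probe-set summary, trend, replicate block and each array left out.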

Additional observations from a re-analysis of the deposited data

How the results depend on the processing

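Over all genes the number of calls was 61 (43 higher, 18 lower) as reported, 4 after quantile normalization (1 higher, 3 lower), 1511 with spike-in scaling (1454 higher, 57 lower), 94 with 4 times the pseudocount, 2 with a stricter filter and 13 as the mean over probe sets. Median scaling gave 51 higher and 15 lower. Limma called 0 genes without a filter (2179 at an unadjusted p under 0.05) and 0 without an intensity trend (1654). Leaving out an array gave 619 calls without EGFP 1, 856 without EGFP 2, 0 without OGFRL1 1 (922 at an unadjusted p under 0.05) and 2 without OGFRL1 2; the lone array of a group is then assumed to vary like the others. Spike-in scaling moved the median of all genes to 0.38.

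Of the members, 4 were called as reported, 1 after quantile normalization and as the mean over probe sets, 0 without a filter, with a stricter filter or without a trend, and with an array left out 0 (without OGFRL1 1), 2 (OGFRL1 2), 5 (EGFP 1) and 6 (EGFP 2). The median of the male-biased members (-1.72) was -1.37 with spike-in scaling, -1.34 without a filter and in the fit of all probe sets, -1.55 as the mean over probe sets, and -1.99 to -1.55 with an array left out. The median of other male-biased genes was -0.57 with spike-in scaling and -1.13 to -0.76 with an array left out. That of female-biased genes was 0.75 with spike-in scaling, 0.92 with a stricter filter, 0.29 as the mean over probe sets and 0.48 to 0.83 with an array left out. With an array left out, Bcl6 ran from -1.47 (without EGFP 2) to 0.52 (without EGFP 1), with 0.0067 without OGFRL1 1, and Cux2 turned to 0.32 as the mean over probe sets. Stat5b (0.049), Cish (0.20) and Foxa3 (0.089) turned with spike-in scaling. Socs2 ran from -0.21 (without EGFP 1) to 0.86 (without EGFP 2) and Cish from -0.77 (without EGFP 1) to 0.49 (without EGFP 2), with 0.071 without OGFRL1 2. Kdm5d was at -0.47 as the mean over probe sets and ran from -0.0040 (without OGFRL1 1) to 0.23 (without OGFRL1 2). The cause of these turns was not tested.

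With the replicate number as a block the calls were 59 over all genes and 4 members, and 3 other male-biased genes in place of 0. Same-numbered arrays deviated against each other (correlation -0.28 over genes), and a crossed replicate block, chosen after seeing the data, called 934 genes and 5 members; the labels name no pairing.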
